A study of Homo sapiens with 4 samples.

Results

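The genes described here are 39 human genes of the synaptic vesicle and the secretory granule, taken as a fixed list of names on the RefSeq annotation of GRCh38, out of 20037 protein-coding genes on the main chromosomes. The rule for membership uses gene names alone and no measured value, although the list was chosen with earlier results of these data known. Chromatin accessibility at these genes was compared between LNCaP, an androgen-sensitive human prostate cancer cell line, and an enzalutamide-resistant line derived from it, with 2 libraries in each group. Enzalutamide is an antiandrogen drug used against prostate cancer. The study asked how chromatin changes while prostate cancer cells become resistant and take on neuroendocrine features. The genes below include markers by which neuroendocrine cells are recognised.

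The LNCaP libraries carried the genotype label WT and no treatment label. The LNCaP-resistance libraries came from cells labelled as resistance cells and as treated with enzalutamide. Growth medium was RPMI-1640 with fetal bovine serum for all 4 libraries according to the labels, while the study's methods describe a resistant line first adapted to charcoal-stripped serum and then taken through rising drug doses. Resistance, the drug, the serum history and the passage history therefore cannot be told apart in this comparison. The study made several resistant sublines, and the labels do not say which of them was sequenced. Replicate numbers 1 and 2 were also labelled as batches (repeat1 and repeat2), and nothing in the labels says that replicates were separate cultures, so the spread between them may be technical.

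Neurons and endocrine cells store transmitters, peptides and hormones in membrane vesicles and release them when calcium enters the cell. SNARE proteins on the vesicle and on the plasma membrane zip together to drive fusion, synaptotagmins sense the calcium, and priming and active-zone proteins hold vesicles ready at the release site. In dense-core granules, granins pack the cargo, and prohormone convertases and a carboxypeptidase cut it to its active form. In the prostate some of these proteins mark the rare neuroendocrine cells, and others are not restricted to them. Synaptophysin, chromogranin A and neuron-specific enolase are used in pathology to recognise neuroendocrine prostate cancer.

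Accessibility was measured by ATAC-seq, in which a transposase cuts and tags open DNA and the places where cuts pile up are called as peaks. The deposited lists gave, for each library, the position of each peak's summit and a score on a −log10 scale, which grows with the evidence for the peak. Because scores rise with sequencing depth, each summit was expressed as a percentile, the percent of summits in the same library whose score was equal or lower, and a gene without a summit in the window was given 0. A gene's end value is the highest percentile within 3 kb of either end of the gene, and its body value is the highest percentile inside the gene and over 3 kb from both ends. A gene was called higher where both LNCaP-resistance libraries lay above both LNCaP libraries, and lower in the reverse case. With 2 libraries against 2, the smallest p that a two-sided exact permutation test can give is 0.333, so values, spreads and counts are given in place of tests.

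The lists held 117245 and 107344 summits in LNCaP and 70866 and 45618 in LNCaP-resistance, with median scores between 10.3 and 15.9. They hold no read counts, so sequencing depth is unknown. The luminal keratin genes KRT8 and KRT18 and the prostate secretory gene KLK3 had a summit near an end in every library. KRT8 and KRT18 overlap in position and had the same end percentile in each library. The KLK3 summit was weak in LNCaP, at percentiles of 4.8 and 3.5, against 82.7 and 60.6 in LNCaP-resistance. Of 8 markers of leukocytes, endothelium and fibroblasts, 5 or 6 also had a summit in each library, while the leukocyte marker PTPRC and the fibroblast collagen COL3A1 had none in any. Over the 39 genes, summits near gene ends numbered 57 and 57 in LNCaP and 64 and 51 in LNCaP-resistance. Inside gene bodies they numbered 248 and 221 in LNCaP against 134 and 69 in LNCaP-resistance, so the difference in number lay in the bodies.

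Promoters of some genes described below are printed here from RefSeq (GRCh38.p14), each as the 250 bases before the listed start, 5′ to 3′ on the strand of the gene. Not all of them differed between the groups. SYN1 (chrX:47619858-47620107, minus strand) was chosen for its match to the paired element of the neuronal silencer REST. VGF (chr7:101165570-101165819, minus strand) was chosen because a summit that was strong only in the resistant libraries fell within its window. SYP (chrX:49200194-49200443, minus strand) and RIMS1 (chr6:71886300-71886549, plus strand) had starts with higher percentiles in resistance, and CPE (chr4:165378758-165379007, plus strand) had a start among the strongest summits of every library. Capitals mark the REST pair (CAGCACC, then 2 bases, then GGACAG), the cyclic AMP response element TGACGTCA, its shorter form TGACG, the GC box GGGCGG and the TATA box TATAAA, on either strand.
SYN1: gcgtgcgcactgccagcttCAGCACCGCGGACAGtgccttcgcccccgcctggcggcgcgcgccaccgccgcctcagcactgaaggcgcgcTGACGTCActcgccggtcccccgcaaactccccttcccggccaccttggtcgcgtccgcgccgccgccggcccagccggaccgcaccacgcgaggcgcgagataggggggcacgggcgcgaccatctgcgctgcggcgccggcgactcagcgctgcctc
VGF: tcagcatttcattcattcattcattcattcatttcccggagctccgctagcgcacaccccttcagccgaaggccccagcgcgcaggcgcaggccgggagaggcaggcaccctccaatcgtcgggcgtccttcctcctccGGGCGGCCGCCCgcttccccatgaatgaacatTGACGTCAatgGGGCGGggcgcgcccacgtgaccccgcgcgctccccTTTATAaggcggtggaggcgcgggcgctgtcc
SYP: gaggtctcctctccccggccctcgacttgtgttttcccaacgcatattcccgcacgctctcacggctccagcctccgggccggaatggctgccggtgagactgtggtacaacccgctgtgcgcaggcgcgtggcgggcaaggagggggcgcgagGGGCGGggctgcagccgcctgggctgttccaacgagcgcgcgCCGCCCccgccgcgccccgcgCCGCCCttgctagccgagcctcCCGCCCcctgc
RIMS1: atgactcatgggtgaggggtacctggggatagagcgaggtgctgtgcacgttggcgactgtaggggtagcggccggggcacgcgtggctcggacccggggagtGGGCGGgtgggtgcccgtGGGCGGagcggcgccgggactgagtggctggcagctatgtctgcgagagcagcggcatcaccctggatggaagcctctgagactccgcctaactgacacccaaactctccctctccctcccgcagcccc
CPE: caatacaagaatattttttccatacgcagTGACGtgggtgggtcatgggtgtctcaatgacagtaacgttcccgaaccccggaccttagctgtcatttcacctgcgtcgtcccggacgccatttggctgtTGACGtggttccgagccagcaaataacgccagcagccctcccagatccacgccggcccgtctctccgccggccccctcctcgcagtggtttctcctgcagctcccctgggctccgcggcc

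Promoter sequences were matched for 30 of the 39 genes, in 46 windows, and the same motifs were counted over 22199 windows of the same length before the starts of protein-coding genes. The cyclic AMP response element, bound by CREB-family factors, was present in 8.70% of member windows and in 2.01% of all windows. The 4 genes that held it were CHGA, PCSK1, SYN1 and VGF, at 54, 77, 159 and 79 bases before the start. TGACG, which that element contains, was in 37.0% of member windows and 24.2% of all windows. The REST pair, allowing up to 2 mismatches, was in 1 member window, that of SYN1 at 231 bases before the start, and in 1.54% of all windows. Its left part CAGCACC alone was in 10.9% against 6.14%, and GGACAGC, which covers its right part, was in 10.9% against 5.21%. E-boxes CAGCTG and CAGATG were in 10.9% and 15.2% of member windows against 13.7% and 10.2% of all. The forkhead motif TGTTTAC was in 4.35% against 2.45%. GC boxes were in 45.7% against 53.7% and TATA boxes in 6.52% against 9.0%. A match is a run of letters in a window and does not show that a factor was bound there.

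At gene ends, 9 of the 39 genes were higher in LNCaP-resistance (23.1%), where 20% of all protein-coding genes were. These were SYP, SYN1, SYT1, SNAP25, RIMS1, CADPS, SNAP91, STMN2 and ELAVL4. Another 7 were lower (17.9%), where 23.9% of all protein-coding genes were, namely SYT11, CPLX2, CHGA, SCG2, PCSK1, CPE and UCHL1. Both shares were near the background in these percentiles over all summits. The median of the changes per gene was 1.98 percentile points over the 39 genes, against 0 over all protein-coding genes. The median end value of the 39 genes was 63.0 and 64.6 in LNCaP and 80.9 and 70.3 in LNCaP-resistance, with a pooled replicate SD of 5.35. Over all protein-coding genes the median end value was 75.9 and 74.0 in LNCaP and 78.2 and 69.4 in LNCaP-resistance. In bulk cells, a lower percentile from fewer open cells and one from less opening in each cell cannot be told apart.

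These counts moved with the scaling. When each list was cut to its 45618 strongest summits, 29 of the 39 genes were higher and 2 lower, where 47.6% and 6.72% of all protein-coding genes were. With percentiles taken only among summits in regions shared by all 4 libraries, 18 were higher and 2 lower, where 31.5% and 7.88% of all genes were. Counting a gene where both same-numbered batch pairs changed the same way gave 16 higher and 7 lower, where 25.3% and 29.4% of all genes were. The count of genes that were higher rose to 18 without LNCaP replicate 1 and to 28 without LNCaP-resistance replicate 2, where 29.98% and 37.6% of all genes were. In each of these settings the share of higher genes among the 39 was above that of all protein-coding genes. Other settings are not listed here. The count of lower genes rose to 16 without LNCaP-resistance replicate 1, where 40.5% of all genes were.

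**Figure D1:**
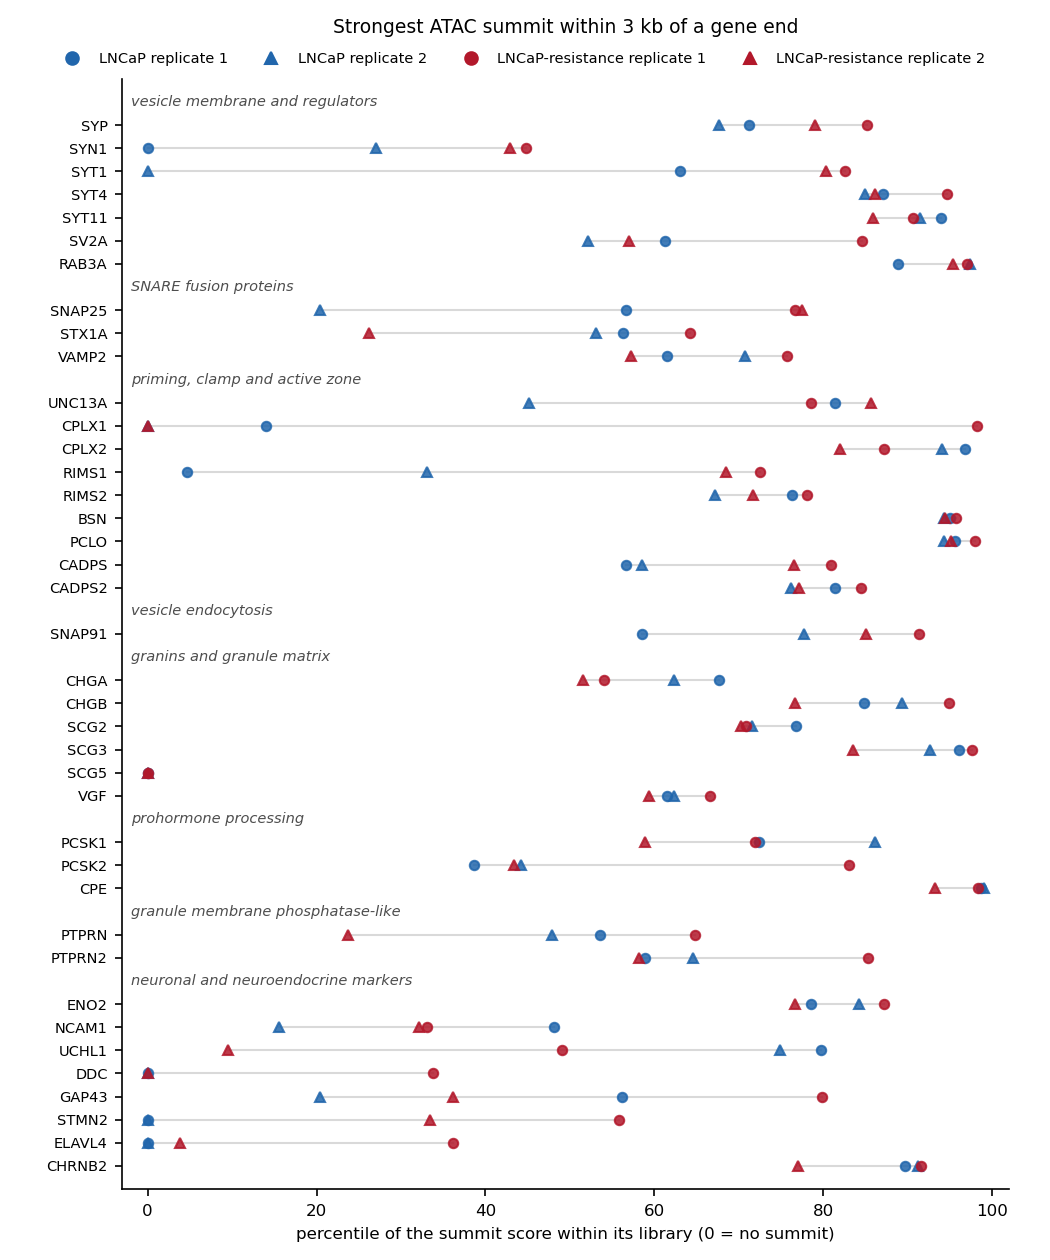
Highest summit percentile within 3 kb of a gene end (horizontal axis, percent of summits in the same library with an equal or lower score, 0 for no summit) for the 39 genes, grouped by role. Blue marks LNCaP and red LNCaP-resistance, circles replicate 1 and triangles replicate 2, and grey lines span the 4 libraries. SYP, RIMS1 and CADPS show both red points to the right of both blue points, and CPLX2, CHGA and UCHL1 the reverse.

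Presence differed little. A summit lay near an end in all 4 libraries for 32 genes (82.1%), where 68.2% of all protein-coding genes had one, and SCG5, a granule chaperone of the convertase PCSK2, had none in any library (15.7% of all genes had none). A summit in both resistant libraries and in neither LNCaP library was found for 2 genes, STMN2 and ELAVL4, where 1.79% of all genes showed this. No gene of the list had the reverse, which 3.83% of all genes showed.

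Proteins of the vesicle membrane held 3 of the 9 higher genes. SYP (chrX:49187815-49200193), the vesicle membrane protein synaptophysin, had end percentiles of 71.2 and 67.7 in LNCaP and 85.2 and 79.1 in LNCaP-resistance. The groups did not overlap, and their means differed by 12.7 points against a spread between replicates of 3.53 (pooled SD, n = 2 per group). In every library this summit lay 27 to 66 bp inside the gene from its start, downstream of the GC-rich window printed above. A further summit at the other end of SYP, 28 bp from the start of the neighbouring gene PRICKLE3, was at 56.5 and 56.0 in LNCaP, 36.5 in the first resistant library and absent from the second. In the body of SYP, 8815 bp from the start, a summit among the strongest of every library stood at 99.8, 98.3, 97.3 and 99.3, so that site was near the ceiling in both groups.

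SYN1 (chrX:47571901-47619857) encodes synapsin I, which tethers vesicles to the cytoskeleton. Its end value was 0 and 27.1 in LNCaP and 44.8 and 42.9 in LNCaP-resistance. The groups did not overlap, and were 30.3 points apart with a pooled SD of 13.6. That call rested on the far end of the gene, where the resistant summits lay 46908 and 46866 bp from the start and slightly nearer to an end of the neighbouring gene ARAF. At the SYN1 start, the percentiles were 0 and 27.1 in LNCaP and 17.1 and 24.9 in LNCaP-resistance, so the groups overlapped there. The promoter with the REST pair thus had weak summits in 3 of the 4 libraries.

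SYT1 (chr12:78863982-79452008), the main calcium sensor for fast release, had a summit 14 to 34 bp before the outer start of the annotated gene. The start that RefSeq lists with a promoter sequence lies 792 bp further in. The percentile of the summit was 63.0 in LNCaP replicate 1, it was not called in LNCaP replicate 2, and its percentiles were 82.6 and 80.3 in LNCaP-resistance. The resistant libraries were the higher ones, and the replicate spread was large, with a difference of 49.9 points and a pooled SD of 31.5. SYT11 (chr1:155859567-155885199), a synaptotagmin that does not bind calcium, was lower, at 94.0 and 91.5 against 90.6 and 85.8. It fell by 4.48 points, or changed by 3.44 upward once every list was cut to the same length. Its summit lay over 2 kb before the SYT11 start, nearer to an end of the neighbouring gene GON4L.

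The other members of this group overlapped between groups. SYT4 and RAB3A, a synaptotagmin and the small GTPase of vesicle docking, stayed between 84.9 and 97.4 in all libraries. SV2A, the vesicle glycoprotein that binds the drug levetiracetam, had values of 61.3 and 52.1 in LNCaP and 84.5 and 57.0 in LNCaP-resistance. The position of its strongest summit differed between groups. In LNCaP it lay 1686 and 1763 bp before the outer start of the annotated gene, and in the resistant libraries 95 and 29 bp before that start. LNCaP-resistance replicate 1 also had a further summit in the upstream region that held the LNCaP summits (chr1:149919280-149919945). Neither LNCaP library had a summit in the region at that start (chr1:149917623-149918189). SV2A fell outside the rule for named genes and was picked after its values were seen.

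Of the SNARE proteins, SNAP25 was higher and the others overlapped. SNAP25 (chr20:10218830-10307418), the plasma membrane SNARE cut by botulinum toxin, had 56.6 and 20.4 in LNCaP, then 76.7 and 77.4 in LNCaP-resistance. Both resistant values exceeded both LNCaP values, by 38.6 points on average with a pooled SD of 18.1. STX1A, its partner syntaxin, was at 56.3 and 53.0 against 64.2 and 26.3, and VAMP2, the vesicle SNARE, at 61.5 and 70.7 against 75.6 and 57.3. For each of these, the LNCaP-resistance libraries lay on either side of the LNCaP ones. Both resistant values of VAMP2 came from a summit beyond its far end, and at the VAMP2 start the values were 61.5 and 70.7 against 53.8 and 32.0, with both resistant libraries lower.

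Among priming, clamp and active-zone genes, RIMS1 and CADPS were higher and CPLX2 lower. RIMS1 (chr6:71886550-72403145) encodes a scaffold that ties vesicles to calcium channels, and within 3 kb of its start it had summits at 4.7 and 13.6 in LNCaP and 72.5 and 68.4 in LNCaP-resistance. With the far end included, the LNCaP values were 4.7 and 33.1, and the difference was 51.6 points with a pooled SD of 14.3. Among gene ends with a summit in all 4 libraries, this was the largest difference of the 39 genes. The resistant summits lay 135 and 454 bp inside the gene. RefSeq also lists inner starts of RIMS1, and over all listed starts its values were 60.9 and 47.8 in LNCaP and 74.7 and 68.4 in LNCaP-resistance, a smaller gap in which the resistant libraries were still the higher ones.

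CADPS (chr3:62398348-62875416), which primes dense-core granules for release, had 56.6 and 58.6 in LNCaP against 80.9 and 76.5 in LNCaP-resistance. The groups were 21.1 points apart on average with a pooled SD of 2.38, and the summit lay 1328 to 1507 bp inside the gene in every library. CPLX2 (chr5:175796533-175884021), a complexin that clamps the SNARE complex, fell from 96.8 and 94.0 to 87.2 and 82.0, with its summit 473 to 602 bp inside the gene. On average it fell by 10.9 points with a pooled SD of 2.96. The paralog CPLX1 gave 14.1, 0, 98.2 and 0, and this pattern came from the 3 kb limit. A strong summit stood near its lower end in every library, at 98.6 and 99.3 in LNCaP and 98.2 and 98.6 in LNCaP-resistance, but 3048, 3057 and 3048 bp away in 3 libraries and 2973 bp away in LNCaP-resistance replicate 1.

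PCLO, encoding the active-zone scaffold piccolo, stayed between 94.3 and 98.0, with its summit at the start of the gene. BSN, encoding bassoon, stayed between 94.2 and 95.8, but that summit lay 795 or 796 bp beyond the far end of the gene and 426 bp from the start of its neighbour APEH. At the BSN start itself the percentiles were 67.1 and 58.7 in LNCaP and 66.9 and 71.1 in LNCaP-resistance, which overlapped. CADPS2 (76.2 to 84.4) and RIMS2 (67.1 to 78.1) overlapped between groups, as did UNC13A, the priming factor Munc13-1, at 81.4 and 45.1 against 78.5 and 85.6. SNAP91 (chr6:83552885-83709393), a clathrin adaptor for recycling vesicle membrane, was higher, at 58.6 and 77.7 in LNCaP and 91.4 and 85.1 in LNCaP-resistance. Its difference of 20.1 points compared with a pooled SD of 10.1. The summits of LNCaP replicate 2 and of both resistant libraries lay 262 to 267 bp inside the gene, and that of LNCaP replicate 1 lay 189 bp before it.

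No granin or convertase was higher at its ends in the percentiles over all summits, while CHGA, CHGB, SCG2, VGF and PCSK2 were higher with equal numbers of summits. CHGA (chr14:92922664-92935285), the granule core protein chromogranin A, had 67.6 and 62.3 in LNCaP and 54.1 and 51.6 in LNCaP-resistance. It fell by 12.1 points, with a pooled SD of 2.95, but turned upward when the lists were cut to equal numbers (a change of 26.1) or ranked within shared regions (11.2). A different site set the value in each group. In LNCaP the strongest summit lay 1780 and 1793 bp inside the gene, in a region without a summit in either resistant library (chr14:92924194-92924707). A summit near 860 bp was present in all 4 libraries, at 61.0 and 38.98 in LNCaP and 54.1 and 51.6 in LNCaP-resistance, and there the groups overlapped.

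SCG2 (chr2:223596940-223602361), secretogranin II, was at 76.8 and 71.5 against 70.9 and 70.3, with its summit 4 to 16 bp from the gene's upper end. It fell by 3.58 points, and the sign turned under both of those scalings (25.8 and 6.98). CHGB (84.8 and 89.3 against 94.9 and 76.7) and SCG3 (96.1 and 92.6 against 97.6 and 83.6) overlapped. VGF, a neuropeptide precursor, was at 61.4 and 62.3 against 66.6 and 59.3 near its ends.

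The convertase PCSK1 (chr5:96390333-96433248) had 72.3 and 86.1 in LNCaP and 71.9 and 58.9 in LNCaP-resistance. It fell by 13.8 points, or changed by 9.52 upward with equal numbers of summits, and its summit, 1070 to 1088 bp before the start, lay nearer to an end of the pseudogene LOC102724070. The carboxypeptidase CPE (chr4:165379008-165498547) was among the most accessible starts in either line, at 98.6 and 99.0 in LNCaP and 98.4 and 93.2 in LNCaP-resistance, and was counted as lower although the nearest libraries of the groups were almost level. It fell by 3.02 points with a pooled SD of 2.57. PCSK2, the other convertase, stood at 38.6 and 44.2 against 83.1 and 43.4, with only LNCaP-resistance replicate 1 standing apart. PTPRN and PTPRN2, phosphatase-like proteins of the granule membrane, overlapped between groups, at 53.6 and 47.8 against 64.8 and 23.8 and at 58.9 and 64.6 against 85.2 and 58.1.

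**Figure D2:**
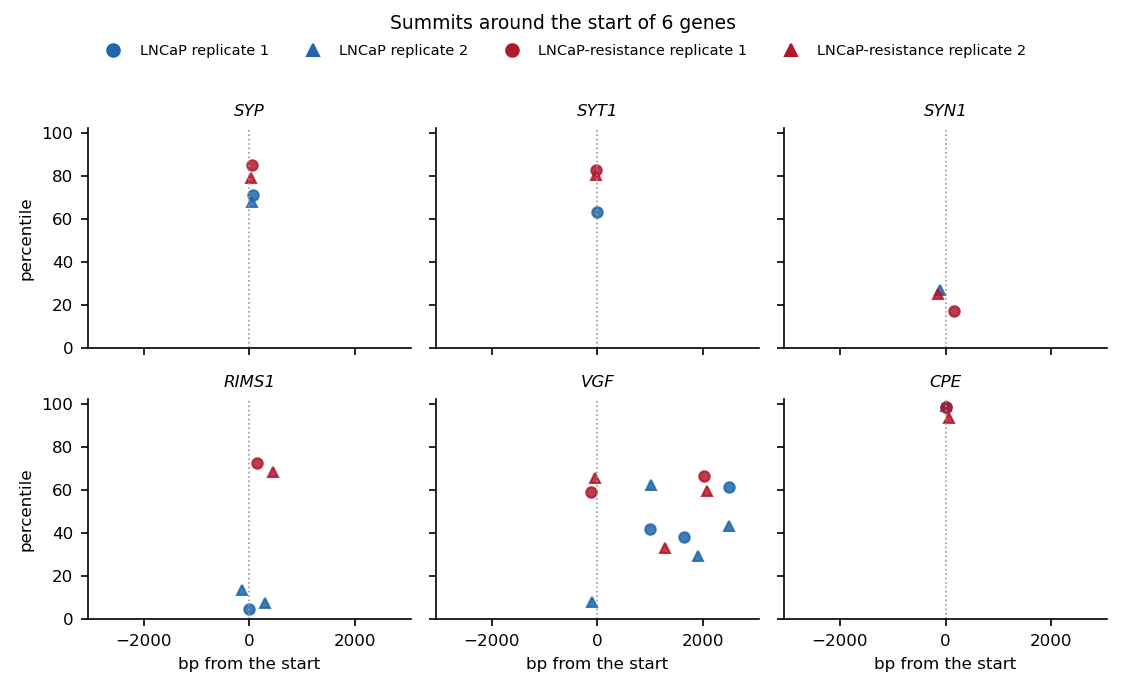
Summits within 3000 bp of the start of 6 genes, with distance from the start in bp in the direction of transcription on the horizontal axis and the percentile of the summit score within its library on the vertical axis. The start is the outer start of the annotated gene, or for VGF the nearest start listed by RefSeq. Blue marks LNCaP, red LNCaP-resistance, circles replicate 1 and triangles replicate 2. Red points sit above blue at SYP, SYT1 and RIMS1 and just before the VGF start, and points mix at SYN1. At CPE both red points lie below both blue points, with the nearest almost level.

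The neuronal and neuroendocrine markers moved in both directions. STMN2 (chromosome 8), a microtubule regulator of growing axons, had no end summit in LNCaP and had summits at 55.8 and 33.5 in LNCaP-resistance, 2179 and 2235 bp inside the lower end of the gene (a difference of 44.6 with a pooled SD of 11.2). In LNCaP its strongest summits lay 4615 and 4521 bp inside the same end, at 59.6 and 38.5, and counted as body summits. The STMN2 calls at the end and in the body therefore depended on the 3 kb limit. ELAVL4 (chr1:50048055-50203772), the neuronal RNA-binding protein HuD, likewise had no end summit in LNCaP and had 36.1 and 3.9 in LNCaP-resistance, within 88 bp of its start (a difference of 19.98 with a pooled SD of 16.1). The second of these values is close to the weakest summits of its library.

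UCHL1 (chr4:41256928-41268455), a ubiquitin hydrolase abundant in neurons, fell from 79.7 and 74.9 to 49.03 and 9.6, the largest drop among the ends of the 39 genes, and together with CPLX2 it stayed lower under both other scalings. On average it fell by 48.0 points with a pooled SD of 19.9. Its summit lay 2050 to 2075 bp inside the gene in every library. ENO2, neuron-specific enolase, had 78.6 and 84.2 in LNCaP and 87.2 and 76.7 in LNCaP-resistance, so the groups overlapped, although it was among the higher genes under both other scalings. At the ENO2 start alone the values were 74.9, 84.2, 87.2 and 76.7, which also overlapped. The adhesion molecule NCAM1 had 48.1 and 15.5 against 33.1 and 32.1, and the growth-cone protein GAP43 had 56.1 and 20.4 against 79.8 and 36.2. Both overlapped, as did the nicotinic receptor subunit CHRNB2. DDC, the decarboxylase of dopamine and serotonin synthesis, had an end summit only in LNCaP-resistance replicate 1, at 33.8.

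Inside the genes, more members lost summits than gained them. Of the 37 genes long enough to have a body (VAMP2 and SCG2 were not), 17 had fewer body summits in both resistant libraries than in both LNCaP libraries (45.9%), where 38.6% of all protein-coding genes with a body did. Only SYN1 had more, where 1.32% of all genes did. The highest body percentile was lower for 15 genes (40.5%), where 43.8% of all were, and higher for 5 (13.5%), where 5.02% of all were. Among the 31 members with a body summit in at least 1 library, 48.4% were lower and 16.1% higher, where 63.4% and 7.27% of all such genes were. All 4 libraries had a body summit in 23 genes, where 38.1% of all genes did, and 6 genes had none in any library, where 31% of all genes had none. In the 14 bodies of at least 100 kb, 11 had fewer summits, where 77.8% of all bodies of that length did, so the loss in these genes was near that of other long genes.

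With each list cut to 45618 summits, 11 bodies were higher and 14 lower, where 13.4% and 23.4% of all were, and 10 had fewer summits and 7 had more, where 16.2% and 8.83% of all did. Within shared regions, 6 were higher and 4 lower, where 7.73% and 15.3% of all were. Same-numbered batch pairs gave counts of 5 higher and 15 lower again, and gave 2 genes, SYN1 and STX1A, with more summits, where 1.72% of all genes had more. The count of genes with more summits was 2 with either LNCaP replicate left out and 3 without LNCaP-resistance replicate 2. Those leave-out counts are given without the shares over all genes and are no result about the members.

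**Figure D3:**
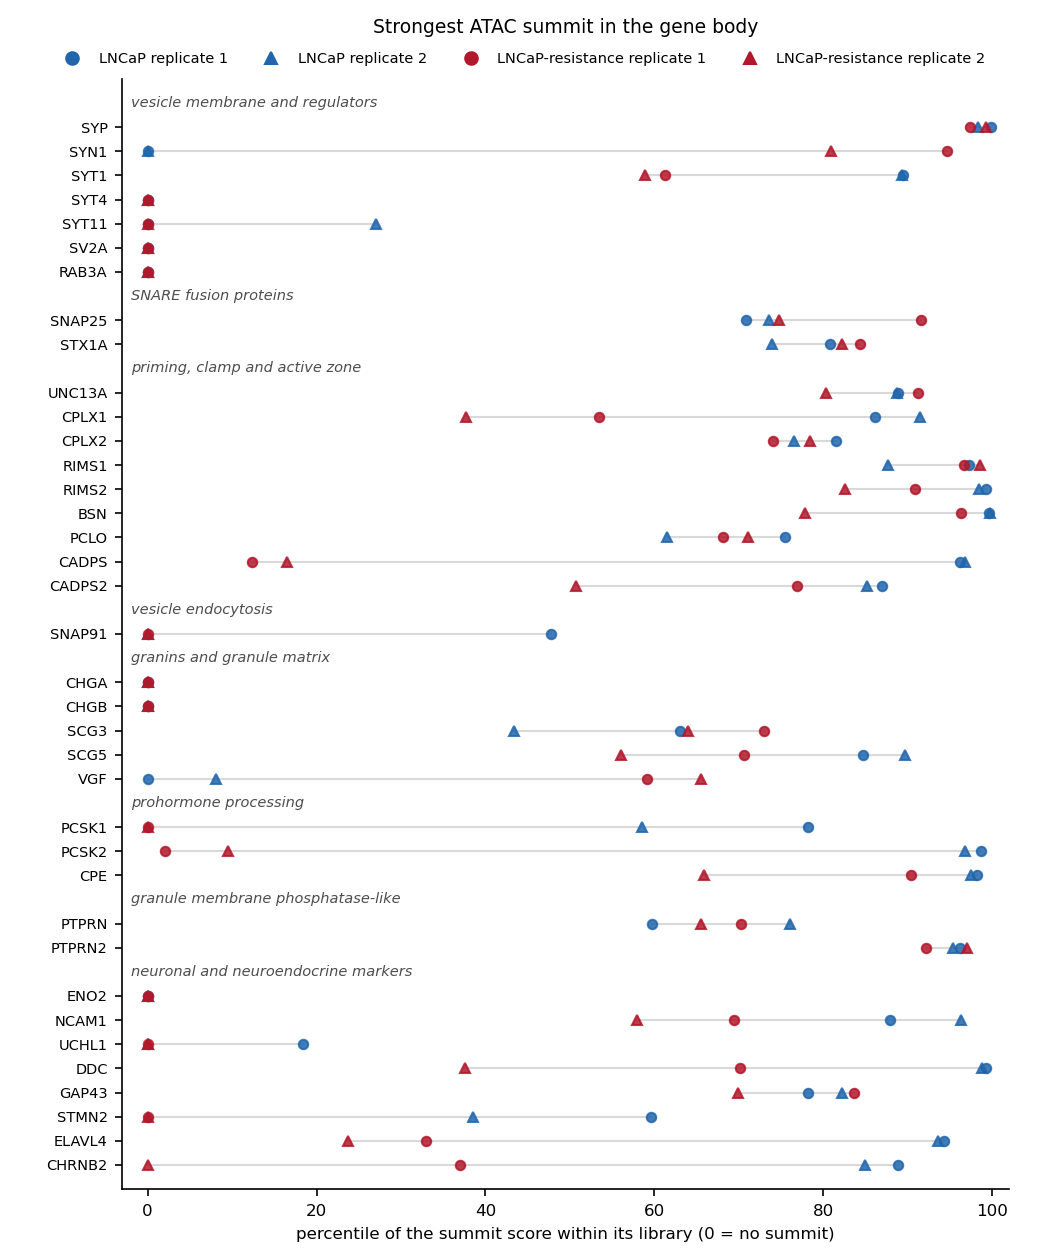
Highest summit percentile in the gene body, over 3 kb from both ends, for the 37 genes that have one, on the same axis and with the same symbols as the plot of gene ends. PCSK2, CADPS, ELAVL4 and CHRNB2 show both red points far to the left of both blue points, and SYN1 and VGF the reverse.

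PCSK2 (chr20:17226107-17484578), which matures insulin and other peptide hormones, changed most. It had 10 and 9 body summits in LNCaP and 1 and 1 in LNCaP-resistance, and its highest body percentile fell from 98.7 and 96.8 to 2.0 and 9.6. The groups did not overlap, and the mean fell by 91.9 points with a pooled SD of 3.89. Of the 11 body regions of PCSK2, 9 were found in LNCaP only. The strongest of them lay 164127 bp inside the gene (chr20:17389984-17390484), at 98.7 and 96.8 in LNCaP and with no summit in either resistant library.

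CADPS had 12 and 14 body summits in LNCaP and 1 and 1 in LNCaP-resistance, or 2.55 and 2.97 per 100 kb against 0.212 and 0.212. Its highest body percentile was 96.1 and 96.8 against 12.4 and 16.5, a mean that fell by 82.0 points with a pooled SD of 2.12, while the value near its start was higher, as given above. No body region of CADPS was shared by all 4 libraries, and 9 of 18 were in LNCaP only. The strongest of these (chr3:62416109-62416627) lay 459048 bp from the start, near the far end of the gene, at 96.1 and 96.8 in LNCaP.

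DDC (chr7:50458442-50565405) held 15 and 11 body summits in LNCaP and 8 and 2 in LNCaP-resistance, with highest percentiles of 99.2 and 98.8 against 70.2 and 37.6. The strongest LNCaP-only region over any of the 39 genes lay inside it, 56570 bp from the start (chr7:50508583-50509088), at 99.2 and 98.8. Another site, 30370 bp from the DDC start (chr7:50534770-50535300), had summits only in LNCaP-resistance, at 70.2 and 31.3. ELAVL4 had 9 and 7 body summits against 1 and 1, with highest percentiles of 94.3 and 93.6 against 33.0 and 23.8. One of its lost regions (chr1:50123007-50123551), at 90.6 and 79.9 in LNCaP, lay 2528 bp from a further start that RefSeq lists inside the gene. ELAVL4 therefore gained a weak summit at its outer start and lost a strong one near an inner start.

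**Figure D4:**
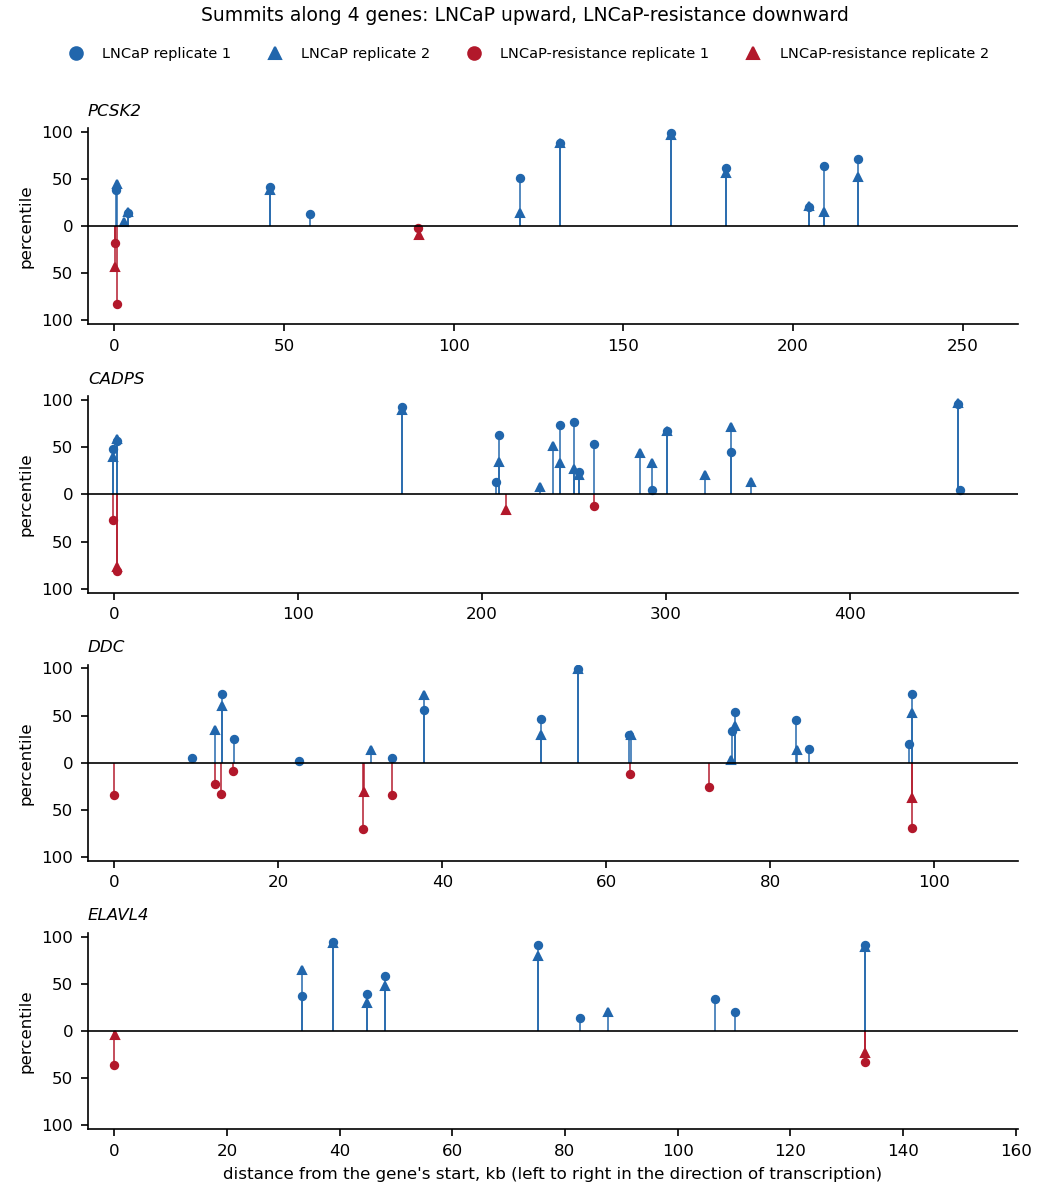
Every summit along PCSK2, CADPS, DDC and ELAVL4, with distance from the gene's start in kb on the horizontal axis and percentile within the library on the vertical axis, drawn upward for LNCaP (blue) and downward for LNCaP-resistance (red). Circles are replicate 1 and triangles replicate 2. In PCSK2 and CADPS the tallest red lines stand at the start of the gene, and the strong blue sites further in have no red partner.

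PCSK1 had 1 body summit in each LNCaP library, at 78.2 and 58.6 in the same region (chr5:96402557-96403076), and none in LNCaP-resistance. STMN2 had 2 and 1 in LNCaP and none in LNCaP-resistance, with highest values of 59.6 and 38.5, and no difference remained once the lists were cut to equal numbers. Its highest summits lay 4615 and 4521 bp inside the lower end, where the resistant libraries had the end summits given above. PCSK1 and STMN2 were the 2 genes with a body summit in both LNCaP libraries and neither resistant library, where 12.2% of all genes with a body showed this. Without LNCaP replicate 2 there were 4, a count given without the share over all genes and no result about these genes. CHRNB2 (chr1:154567778-154580013) had a body site at 88.8 and 85.0 in LNCaP, 37.0 in LNCaP-resistance replicate 1 and none in replicate 2, although its ends had a summit in all libraries (77.0 to 91.6).

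Among the longest genes, fewer summits did not always mean a lower highest percentile. PTPRN2, the longest of the 39, had 82 and 73 body summits in LNCaP against 47 and 18, or 7.86 and 7.0 against 4.51 and 1.73 per 100 kb, and yet its highest body percentile stayed between 92.2 and 97.0, at different sites in the 2 groups. RIMS1 had 11 and 12 against 6 and 6, and its highest body percentile, at the same site in every library, stayed between 87.7 and 98.5. RIMS2 had 14 and 15 against 13 and 10, and its highest body percentile was lower, at 99.3 and 98.4 against 90.9 and 82.5. With equal numbers of summits, RIMS1 and RIMS2 counted as having more body summits in LNCaP-resistance, not fewer. These 3 genes were picked after their values were seen.

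The 5 genes with a higher body value were SYN1, VGF, SNAP25, STX1A and SCG3. SYN1 had no body summit in LNCaP and had 1 in each resistant library, at 94.7 and 80.9. It was the only gene of the 39 with a body summit in both resistant libraries alone, where 0.701% of all genes showed this. Without LNCaP replicate 2 there were 2 such genes, a count given without the share over all genes and no result about these genes. The region (chrX:47582030-47582582) lies 37551 bp from the SYN1 start but 130 bp from the start of TIMP1, a metalloproteinase inhibitor gene that sits inside SYN1. The site therefore cannot be assigned to SYN1 by position, and no other body region found in both resistant libraries alone lay within 1 kb of a listed start.

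VGF had a body value of 0 and 8.1 in LNCaP and 59.2 and 65.5 in LNCaP-resistance, a difference of 58.3 points with a pooled SD of 5.15. Its annotated span (chr7:101162509-101169952) reaches 4383 bp beyond the start that RefSeq lists with a promoter sequence. The resistant summits stood 116 and 42 bp before that start, inside the window printed above with the cyclic AMP response element, the GC boxes and the TATA box. The weak LNCaP summit lay 113 bp before the same start. This gain was not visible in the value near the outer ends of VGF. Over all summits within 3 kb of that listed start, the highest values were 61.4 and 62.3 in LNCaP and 66.6 and 65.5 in LNCaP-resistance. The body of VGF is 1442 bp long. Its summits lay 3102 to 3176 bp from a gene end, so the body call depended on the 3 kb limit. VGF was added to the named genes after its values were seen.

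The remaining body gains were small. SNAP25 had 70.8 and 73.6 in LNCaP against 91.5 and 74.8 in LNCaP-resistance, STX1A 80.8 and 74.0 against 84.4 and 82.2, and SCG3, which sorts granins into granules, 63.0 and 43.4 against 73.0 and 64.0. In each of them the nearest libraries of the 2 groups were under 2 points apart.

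When summits of the 4 libraries were widened by 250 bp and merged, 417 regions covered the 39 genes and the 3 kb around them. Of these, 79 (18.9%) were shared by all libraries, where 24.1% of regions over protein-coding genes were. A further 101 (24.2%) were found in LNCaP only, where 26.6% of regions over protein-coding genes were, and 18 (4.32%) in LNCaP-resistance only, where 3.67% were. Without LNCaP replicate 2 the LNCaP-only regions numbered 169, and without LNCaP-resistance replicate 2 the resistant-only regions numbered 59. These leave-out counts are given without the shares over all genes and are no result about the 39 genes. Gene ends and bodies differed in makeup, as they did over all protein-coding genes. Of 74 end regions, 39 were shared, 3 were LNCaP only and 7 resistant only, while of 343 body regions, 40 were shared, 98 were LNCaP only and 11 resistant only. Over all protein-coding genes, 44.8% of end regions were shared, 12.8% LNCaP only and 4.94% resistant only, and of body regions 15.9% were shared, 32.1% LNCaP only and 3.15% resistant only. LNCaP-only body regions were spread over 20 genes, and 6 of them (PTPRN2, CADPS, PCSK2, DDC, ELAVL4 and NCAM1) held 61 of the 98.

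**Figure D5:**
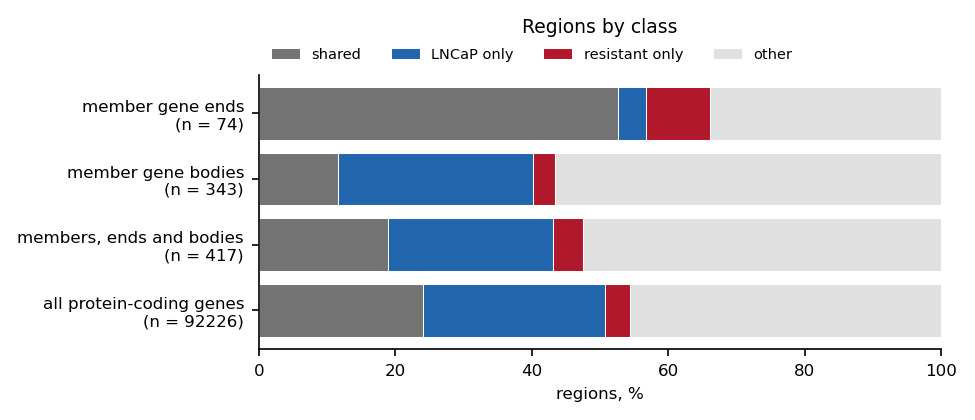
Share of regions in each class (horizontal axis, percent of regions) for the ends and bodies of the 39 genes, for both together, and for all protein-coding genes with 3 kb on either side. Shared means a summit in all 4 libraries, LNCaP only and resistant only mean both libraries of a group and neither of the other, and other means any other combination. Shared regions make up 39 of 74 at member ends and 40 of 343 in member bodies.

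The 3 strongest regions found in LNCaP-resistance only were the site at TIMP1 inside SYN1, a site 34985 bp inside GAP43 (chr3:115658238-115659162) at 78.0 and 69.9, and a site 151759 bp from the lower end of RIMS2 on chromosome 8 at 77.3 and 66.2. The GAP43 site had no end of another annotated gene within 100 kb. RIMS2 held 4 of the 11 resistant-only body regions, more than any other member. Of all 343 body regions, 339 lay more than 1 kb from every start listed for a gene, so the LNCaP-only and resistant-only body regions, apart from the one at TIMP1, were away from listed promoters. Starts were listed for 30 of the 39 genes, and regions of the others were set against the starts of other genes only.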

How the data were processed

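ATAC-seq was measured in 2 LNCaP and 2 LNCaP-resistance libraries. For each library the authors deposited the summit positions of its peaks, each with a −log10 p or q score, and which of p and q it was is not given in the sources used here. The submitters' processing notes name hg38, Bowtie2 2.2.5, SAMtools 1.6, MACS2 2.2.6, deepTools 3.5.2, HOMER 4.11 and edgeR 3.22.5 with no role or order, and the handling of the transposase shift is not given in the sources used here. The lists hold no counts, so no depth, interval or count model was possible.

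Summits were set against RefSeq genes on GRCh38 with Python 3.11.15, numpy 2.4.6 and pandas 2.3.3. Percentiles within each library, the highest value within 3 kb of a gene end and inside the body, and regions of summits widened by 250 bp were computed for all 20037 protein-coding genes, and 16267 of them had a body. The calling step was run on simulated lists of 2000 genes, where 600 of 600 planted calls were recovered. The planted shifts were far larger than the simulated noise, and false calls were not counted. This run therefore checks the code and does not measure how reliable a call is in these data. Values in every library were given for SYP, CHGA and ENO2, for every gene called at its ends, for genes present in 1 group only, for the 5 largest body changes and for the 3 strongest regions of each group, and other genes were named after their values were seen. The members and gene lists were chosen with earlier results of these data known. Batch numbers were shared between the groups by label, and the differences of replicate 1 from replicate 2 in the 2 groups correlated at 0.0404 over 13664 genes, as a description. A motif and part of a marker list are not reported here. Alternatives were other distances, listed starts only, a score minimum of 10, lists cut to equal length, percentiles taken in shared regions, 1 library in place of 2 for a region class, leaving out each library, and the batch pairing.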

Additional observations from a re-analysis of the deposited data

How the results depend on the processing

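The lists hold no depth, and the resistant lists are shorter, so the scaling of scores limits every count. The shares of all protein-coding genes moved with the settings as well, as given above for several counts. Counts, medians and regions in this section are given without the values over all genes. They show how far the processing moved them and are no result about these genes. At gene ends, equal numbers of summits gave 29 higher and 2 lower genes, a median change of 28.4 points and 9 genes with summits in the resistant libraries alone, against 9, 7, 1.98 and 2. Percentiles among shared regions gave 18 higher, 2 lower and a median change of 10.4. A score of at least 10 gave 3 lower genes and 1 present in resistance alone, and a distance of 5 kb also gave 1 of these. Leaving out each library in turn gave 10 to 28 higher genes, 7 to 16 lower genes, a median change of -0.269 to 8.69, and 2 to 3 genes present in resistance alone, and the most higher genes and the largest median came without LNCaP-resistance replicate 2. No gene was present at its ends in LNCaP alone under any of these settings. The ends of CHGA, PCSK1, SCG2 and SYT11 changed by 26.1, 9.52, 25.8 and 3.44 with equal numbers, and those of CHGA and SCG2 by 11.2 and 6.98 among shared regions.

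In gene bodies, equal numbers gave 11 genes with a higher percentile, 7 with more and 10 with fewer summits, 2 present in resistance alone and 1 in LNCaP alone. Percentiles among shared regions gave 4 lower bodies. A score of at least 10 gave 3 genes with more summits, 2 present in resistance alone and 4 in LNCaP alone. Without 1 library, 6 to 7 bodies were higher and 17 to 20 lower, 1 to 3 had more and 17 to 23 fewer summits, 1 to 2 were present in resistance alone and 2 to 4 in LNCaP alone. Regions shared, in LNCaP only and in resistance only numbered 41, 34 and 35 with equal numbers, 43 and 53 for the shared and the LNCaP-only regions with a score of at least 10, and 137, 214 and 66 where 1 library per group sufficed. Without 1 library they were 81 to 110, 105 to 169 and 23 to 59, with 169 reached without LNCaP replicate 2 and 59 without LNCaP-resistance replicate 2.

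The replicate block, which paired libraries by batch number, gave 16 higher gene ends and 2 bodies with more summits, and moved no other count by over 1.5 times. Of 192 alternative values for single named genes, 142 moved by less than the spread between replicates. In all, 172 kept their sign, 12 became 0 and 8 turned their sign. Of the zeros, 11 came with percentiles among shared regions, where the gene had no summit in such a region (the ends of SYT1, SYN1, ELAVL4 and STMN2 and the bodies of SYN1, PCSK1, STMN2, PCSK2, CADPS, CHRNB2 and VGF). The 8 were the 6 given above and ENO2, whose groups overlap, without LNCaP replicate 1 and without LNCaP-resistance replicate 1. The cause of the other shifts was not tested.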

Other observations

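Another 40 genes of vesicle release and granule function, listed for comparison, were examined in the same way. At gene ends, 6 were higher in LNCaP-resistance (15%) and 11 lower (27.5%), beside 20% and 23.9% of all protein-coding genes. AMPH, the endocytic protein amphiphysin, had no end summit in LNCaP and had 58.5 and 46.4 in LNCaP-resistance. SYN2, a further synapsin, had 8.6 and 20.4 against 73.2 and 46.6, and SYNGR3, a synaptogyrin of the vesicle membrane, had 4.9 and 14.3 against 57.4 and 51.0. RIMBP2, which links RIM proteins to calcium channels, had 81.5 and 77.8 in LNCaP, 13.5 in LNCaP-resistance replicate 1 and no summit in replicate 2.

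In gene bodies, 26 of 36 were lower (72.2%) and 3 higher, beside 43.8% and 5.02% of all genes. Among those with a body summit in any library 76.5% were lower, beside 63.4% of all such genes, and among the 17 bodies of at least 100 kb 82.4% were, beside 72.9%. SLC18A1, the monoamine transporter of endocrine granules, went from 93.7 and 92.9 to 12.4 and 3.9. SLC17A7, a glutamate transporter, had 0 and 15.7 in LNCaP and 95.4 and 74.2 in LNCaP-resistance. The calcium sensor SYT5 had body summits in LNCaP-resistance only, at 64.1 and 53.8. These genes were named after their values were seen.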
